A study of Mus musculus with 6 samples.

Results

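The interferon regulatory factors are a family of transcription factors, and 8 of them were examined here in 32D cells that carry the Nup98::Nsd1 fusion gene and in mock-transduced 32D cells. The members were Irf1, Irf2, Irf3, Irf4, Irf5, Irf7, Irf8 and Irf9, taken as every probe set of the array whose annotation names one of these symbols and no other gene. This gave 14 probe sets out of 45037 that are no control (45101 with controls). Irf3 had 4 probe sets, Irf4, Irf5 and Irf8 had 2 each, and Irf1, Irf2, Irf7 and Irf9 had 1 each.

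32D is a cell line from the bone marrow of C3H/HeJ mice infected with Friend leukemia virus, and it needs interleukin-3 for growth. The 3 Nup98::Nsd1 samples carry a fusion of the nuclear pore gene Nup98 with the histone methyltransferase gene Nsd1, which occurs in acute myeloid leukaemia. The 3 mock samples are named after the retroviral vector MSCVpuro. Total RNA was measured with Affymetrix Mouse Genome 430 2.0 arrays, 1 for each sample. All 6 samples come from 1 cell line, and the labels do not say whether the replicates were separate transductions or cultures, so p-values measure the spread between these samples only, which may be technical.

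Interferon regulatory factors share a DNA-binding domain that reads the interferon-stimulated response element, a repeated GAAA motif. Irf3, Irf5 and Irf7 rest in the cytoplasm until sensors of foreign RNA or DNA lead to their phosphorylation by kinases such as Tbk1 and Ikbke, after which they switch on interferon genes. Irf9 joins Stat2 in the complex that interferon receptors activate, Irf1 and Irf2 compete for the same elements, and Irf4 and Irf8 act in lymphoid and myeloid cells together with partners such as Spi1 and Batf. An array reports RNA levels only, and the phosphorylation that activates Irf3, Irf5 and Irf7 does not appear in it.

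The promoter of Irf7, the member with the largest change, is printed for orientation. So are the matches of 3 other members to the motifs named below other than the TATA box, whatever the change of these members. Promoter sequences came from RefSeq (mouse build GRCm38.p6), as windows of 300 bases that run from 250 bases before to 50 after each start site. All 8 members were matched, with 11 windows in all. The motifs were searched on both strands: the response element core GAAANNGAAA, the gamma-activated sequence TTCNNNGAA, the Spi1-IRF composite element GGAANNGAAA, the TATA box TATAAA, and the NF-kB consensus. Capitals mark the matches, and positions count back from the start site, with -1 the last base before it.
Irf7, chr7:141266425-141266674, minus strand, the 250 bases before the start: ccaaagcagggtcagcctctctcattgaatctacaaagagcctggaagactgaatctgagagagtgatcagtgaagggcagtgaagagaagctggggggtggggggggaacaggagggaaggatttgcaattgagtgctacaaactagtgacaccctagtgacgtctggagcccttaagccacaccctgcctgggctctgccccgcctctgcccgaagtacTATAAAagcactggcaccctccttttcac
Irf1, chr11:53769909-53769947, plus strand, gamma-activated sequence: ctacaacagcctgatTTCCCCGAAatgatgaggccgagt
Irf1, chr11:53769986-53770013, plus strand, NF-kB consensus: ggccgagtccgggccGGGGAATCCCgct
Irf2, chr8:46739495-46739544, plus strand, composite element overlapping a response element, then a gamma-activated sequence: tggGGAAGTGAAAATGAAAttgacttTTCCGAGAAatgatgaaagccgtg
Irf2, chr8:46739713-46739744, plus strand, NF-kB consensus: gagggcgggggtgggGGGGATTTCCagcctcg
Irf8, chr8:120736172-120736228, plus strand, a pair of gamma-activated sequences: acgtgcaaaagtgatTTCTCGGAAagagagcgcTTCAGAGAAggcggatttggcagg

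In these windows the Irf7 promoter held a TATA box at -29 and no match to the other motifs. Irf1 held a gamma-activated sequence at -90 and an NF-kB consensus at -13. Irf2 held the response element core at -241, overlapping a composite element that begins at -247, a gamma-activated sequence at -224 and an NF-kB consensus at -17. Irf8 held gamma-activated sequences at -171 and -153 and a TATA box at -31, Irf4 held a TATA box at -26, and the windows of Irf3, Irf5 and Irf9 held none of these letters. Among 32851 RefSeq promoter windows of this length, 3.44% held the response element core, 8.30% the gamma-activated sequence, 8.46% the NF-kB consensus, 2.72% the composite element and 13.6% the TATA box. A match describes the sequence and does not show that a factor binds it.

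Signals are MAS5 intensities on a linear scale, scaled by the authors, and each carries a call that the transcript is Present, Marginal or Absent. Testing was limited to the 20494 probe sets that either group showed as Present on each of its 3 arrays. Present calls covered 47.6% to 48.2% of probe sets on the Nup98::Nsd1 arrays and 45.1% to 45.9% on the mock arrays. The 3' to 5' signal ratio of Actb, which is a measure of RNA integrity and labelling, was 1.45 to 1.50 on the Nup98::Nsd1 arrays and 1.15 to 1.20 on the mock arrays. The mean log2 signal of the hybridization controls, which are added in equal amounts to every array, was 12.53 to 12.56 on the Nup98::Nsd1 arrays and 12.10 to 12.24 on the mock arrays. Markers of myeloid progenitors were Present in both groups, 6 of 8 on all 3 Nup98::Nsd1 arrays and 7 of 8 on all 3 mock arrays, with Kit Absent on all arrays. Their summed signal was 34491 to 35267 on the Nup98::Nsd1 arrays and 48667 to 51412 on the mock arrays, and single markers of the list went both ways. Mpo averaged 5183 on the Nup98::Nsd1 arrays and 19095 on the mock arrays, and Prtn3 averaged 4878 on the Nup98::Nsd1 arrays and 9202 on the mock arrays, while the interleukin-3 receptor gene Il3ra was 3.29-fold higher on the deposited scale. The part of these array-level differences in the results was not tested.

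**Figure D1:**
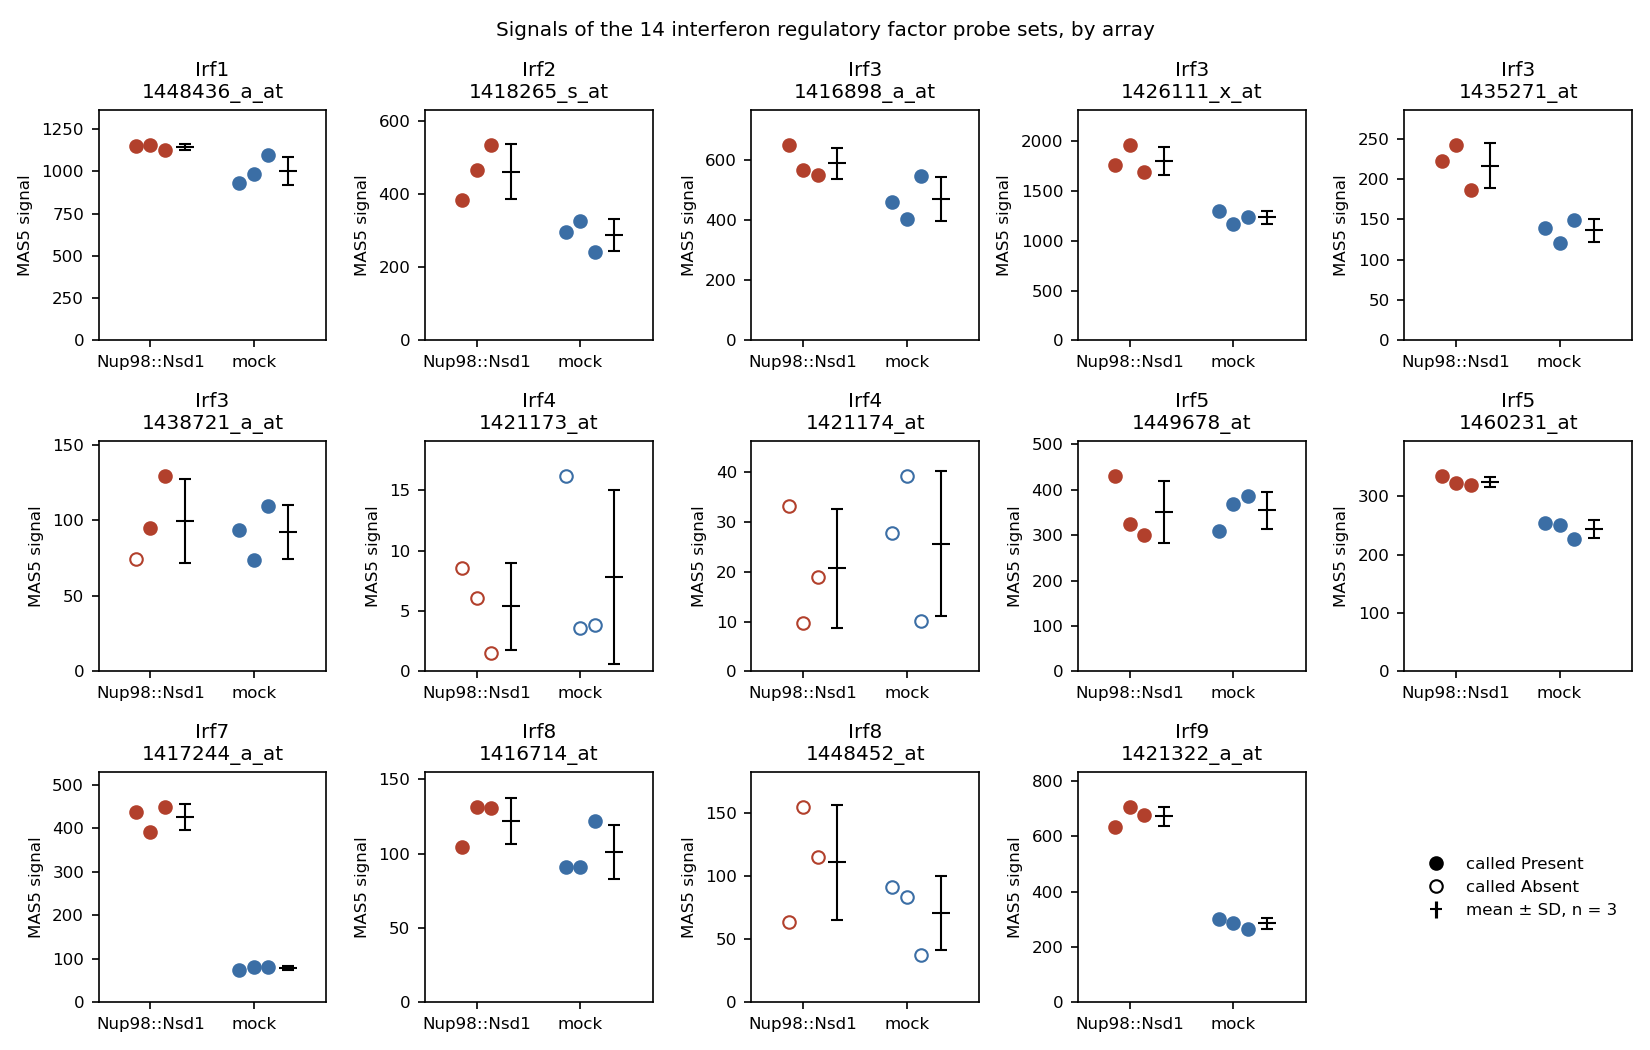
MAS5 signal (linear scale) of each of the 14 interferon regulatory factor probe sets on the 3 Nup98::Nsd1 and the 3 mock arrays, with open points for Absent calls and black bars for mean ± SD (n = 3). The Irf7 and Irf9 points of the Nup98::Nsd1 arrays lie well above those of the mock arrays, whereas both Irf4 panels hold Absent calls alone.

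Irf7, which amplifies the type I interferon response and is itself known as an interferon-stimulated gene, was raised 5.41-fold by limma's estimate in Nup98::Nsd1 cells. Its signal was 438, 392 and 448 on the Nup98::Nsd1 arrays, against 73.4, 80.7 and 81.8 on the mock arrays. All arrays called it Present, and the lowest Nup98::Nsd1 signal lay far above the highest mock signal. The group means were 426 ± 29.6 in Nup98::Nsd1 cells and 78.6 ± 4.59 in mock cells (SD, n = 3 each). The log2 fold change in limma's moderated test was 2.44 (SE 0.135, 95% interval 2.14 to 2.73, adjusted p = 2.71e-08). It exceeded that of 99.0% of all tested probe sets. In cultures of many cells, more cells that express a gene and more RNA per cell cannot be told apart, which holds for each value given here.

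Irf9, the DNA-binding subunit of the complex with Stat2, was 2.36-fold higher. Its signal was 635, 705 and 678 on the Nup98::Nsd1 arrays, against 303, 288 and 265 on the mock arrays. The groups did not overlap, and each group's arrays lay close together. The means were 673 ± 35.0 in Nup98::Nsd1 cells and 285 ± 19.0 in mock cells (SD, n = 3 each), with a log2 fold change of 1.24 (SE 0.0900, 95% interval 1.04 to 1.44, limma adjusted p = 2.43e-07). Irf7 and Irf9 were the members that changed at least 2-fold on the deposited scale. With arrays scaled to the hybridization controls the log2 fold change of Irf9 was 0.87, which is less than 2-fold.

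Irf3, the constitutively made factor that responds first to RNA and DNA sensors, was represented by 4 probe sets, of which 3 rose on the deposited scale and 1 did not pass, though 1416898_a_at among the 3 had the opposite sign with arrays scaled to the hybridization controls. The probe set 1426111_x_at, whose suffix warns that some probes may also bind other transcripts, gave 1757, 1955 and 1685 on the Nup98::Nsd1 arrays, against 1299, 1171 and 1238 on the mock arrays. It was 1.45-fold higher, without overlap of the groups (log2 fold change 0.54, SE 0.0658, limma adjusted p = 1.78e-05). The probe set 1435271_at gave 222, 242 and 186 on the Nup98::Nsd1 arrays, against 139, 121 and 149 on the mock arrays. It was 1.58-fold higher, again without overlap (log2 fold change 0.66, SE 0.157, limma adjusted p = 0.00261), and did not pass after quantile normalization (0.27) or with the hybridization controls (0.30).

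The other Irf3 probe sets showed less. The signals of 1416898_a_at were 649.9, 569 and 551 on the Nup98::Nsd1 arrays, against 462, 403 and 548 on the mock arrays. The lowest Nup98::Nsd1 signal and the highest mock signal nearly met, and the change of 1.26-fold passed the test on the deposited scale (log2 fold change 0.33, SE 0.114, limma adjusted p = 0.0213). It no longer passed without Nup98::Nsd1 replicate 1 (log2 fold change 0.26) or without mock replicate 2 (0.23), and scaling to the hybridization controls gave -0.033. The dimmest probe set, 1438721_a_at, gave 74.1, 94.9 and 129 on the Nup98::Nsd1 arrays, the first of them called Absent, against 93.8, 73.5 and 109 on the mock arrays. These groups overlapped throughout, with a 95% interval of the log2 fold change from -0.46 to 0.64 (limma adjusted p = 0.766). Averaged over its 4 probe sets, Irf3 had a log2 fold change of 0.41 (limma adjusted p = 0.00396).

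Irf5, which acts below Toll-like receptors on inflammatory cytokine genes, had 2 probe sets that gave different results. The probe set 1460231_at gave 334, 322 and 319 on the Nup98::Nsd1 arrays, against 255, 251 and 227 on the mock arrays. The groups did not overlap, and the change on the deposited scale was 1.33-fold (log2 fold change 0.41, SE 0.106, limma adjusted p = 0.00428). The probe set 1449678_at gave 429, 324 and 299 on the Nup98::Nsd1 arrays, against 309, 368 and 387 on the mock arrays. Here the groups overlapped, and the 95% interval of the log2 fold change ran from -0.34 to 0.29 (limma adjusted p = 0.872). Averaged over both probe sets, Irf5 did not pass (log2 fold change 0.19, limma adjusted p = 0.0995).

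Irf2, known as a repressor of interferon-responsive genes, was measured by 1 probe set alone, 1418265_s_at. Its signals were 385, 468 and 534 on the Nup98::Nsd1 arrays, against 298, 328 and 242 on the mock arrays. The groups did not overlap, although the arrays within each group were spread widely. The means were 462 ± 74.9 in Nup98::Nsd1 cells and 289 ± 43.6 in mock cells (SD, n = 3 each), a 1.60-fold rise (log2 fold change 0.68, SE 0.143, limma adjusted p = 0.00125).

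Irf1, an activator at the same elements that interferon gamma induces, had signals of 1151, 1153 and 1126 on the Nup98::Nsd1 arrays, against 928, 984 and 1093 on the mock arrays. The groups were separated by a narrow gap between the third Nup98::Nsd1 and the third mock array. The means were 1143 ± 14.9 in Nup98::Nsd1 cells and 1002 ± 84.0 in mock cells (SD, n = 3 each), and the change of 1.14-fold passed the test on the deposited scale (log2 fold change 0.19, SE 0.0672, limma adjusted p = 0.0225), with the opposite sign under 2 other scalings of the arrays. The log2 fold change lay close to the median of all tested probe sets, 0.15, and exceeded that of 52.7% of them. The test was not passed when any 1 of Nup98::Nsd1 replicates 1 and 2 or mock replicates 1 and 2 was left out (log2 fold changes 0.19, 0.19, 0.14 and 0.18).

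Of the members known for lymphoid and myeloid differentiation, Irf8 did not pass the test and Irf4 was not tested. For Irf8, which directs monocyte and dendritic cell development, 1416714_at was Present on all arrays with 104, 131 and 130.4 on the Nup98::Nsd1 arrays, against 90.8, 90.7 and 122 on the mock arrays. The groups overlapped, with a log2 fold change of 0.28 and a 95% interval from -0.16 to 0.71 (limma adjusted p = 0.234). The second Irf8 probe set, 1448452_at, was Absent on all arrays, with signals of 63.7, 154 and 115 on the Nup98::Nsd1 arrays and 91.6, 83.3 and 37.6 on the mock arrays.

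Irf4, best known from lymphocytes and plasma cells, was called Absent on all 6 arrays by both of its probe sets. The signals of 1421173_at were 8.57, 6.09 and 1.51 on the Nup98::Nsd1 arrays and 16.2, 3.56 and 3.81 on the mock arrays. Those of 1421174_at were 33.3, 9.70 and 19.1 on the Nup98::Nsd1 arrays and 27.7, 39.2 and 10.2 on the mock arrays. Neither probe set nor the Absent one of Irf8 was tested, and no fold is given for these probe sets, whose signals were not called Present.

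In all, 11 of the 14 probe sets were tested, of which 8 passed as higher in Nup98::Nsd1 cells, 0 as lower and 3 did not pass. Among all tested probe sets, 42.3% were called higher and 27.6% lower, so changes of some size were common in these cells. The groups were without overlap for 8 of the 11 members and for 73.2% of all tested probe sets, close to the members' share. The median log2 fold change was 0.41 over the 11 members and 0.15 over all tested probe sets, and 9 of the 11 lay above the value for all. By its brightest tested probe set, 5 of the 7 genes with one were called higher, 0 lower, and Irf5 and Irf8 did not pass, beside 42.9% of all genes called higher and 29.5% lower in the same way. Irf3 and Irf5, which had several tested probe sets, each held 1 that did not pass.

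**Figure D2:**
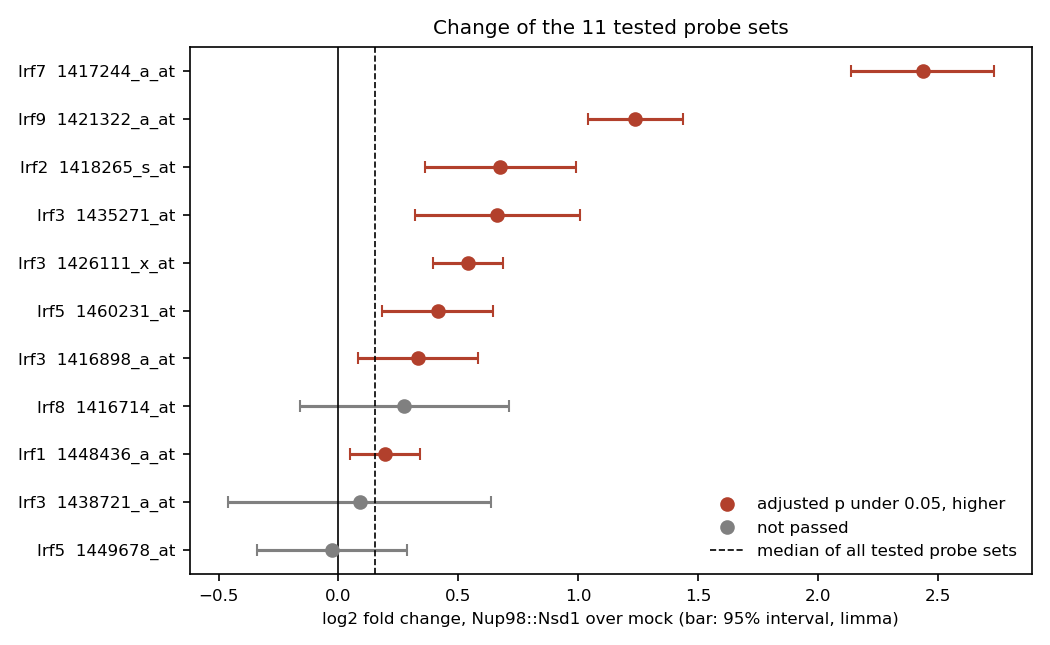
Log2 fold change (Nup98::Nsd1 over mock) of the 11 tested probe sets with 95% intervals from limma, coloured where the adjusted p was under 0.05, with the median of all tested probe sets as a dashed line. Irf7 at 2.44 and Irf9 at 1.24 stand apart from the other 9, which lie between -0.03 and 0.68 with a sign that depends on the scaling of the arrays for 4 of them (Irf1, Irf8 and 2 Irf3 probe sets).

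Because the median of all probe sets was above 0 on the deposited scale and the hybridization controls were brighter on the Nup98::Nsd1 arrays, the members were also read under 4 other scalings. The median log2 fold change of all tested probe sets was 0.15 as deposited, -0.0089 after quantile normalization, -0.04 with arrays centred on their 75th percentile, -0.02 with arrays centred on the median and -0.21 with arrays scaled to the hybridization controls. Of all calls, 60.5% were in the higher direction as deposited, against 49.7%, 44.8%, 47.1% and 32.3% under these scalings in the same order. Irf7 and Irf9 were called higher under each of them. Irf2 was called higher under 3 and did not pass with the hybridization controls (log2 fold change 0.31, limma adjusted p = 0.0789).

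The number of the 11 members' probe sets called higher was 8 as deposited, 4 after quantile normalization, 5 with either centring and 2 with the hybridization controls. Of all tested probe sets, 33.3% were called higher after quantile normalization, 31.0% with the 75th percentile, 32.4% with the median and 22.3% with the hybridization controls, so the members' share after quantile normalization and with the hybridization controls lay near that of all probe sets. Irf3 by 1426111_x_at was also called higher under 3 of the 4 scalings, and its log2 fold change was 0.17 with the hybridization controls. Irf5 by 1460231_at passed under none of the 4, with log2 fold changes of 0.049 to 0.24. Irf1 likewise passed under none, and its sign was negative with the 75th percentile (-0.0020) and the hybridization controls (-0.17). The hybridization controls also gave the single member called lower, Irf5 by 1449678_at (log2 fold change -0.39, limma adjusted p = 0.0218).

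**Figure D3:**
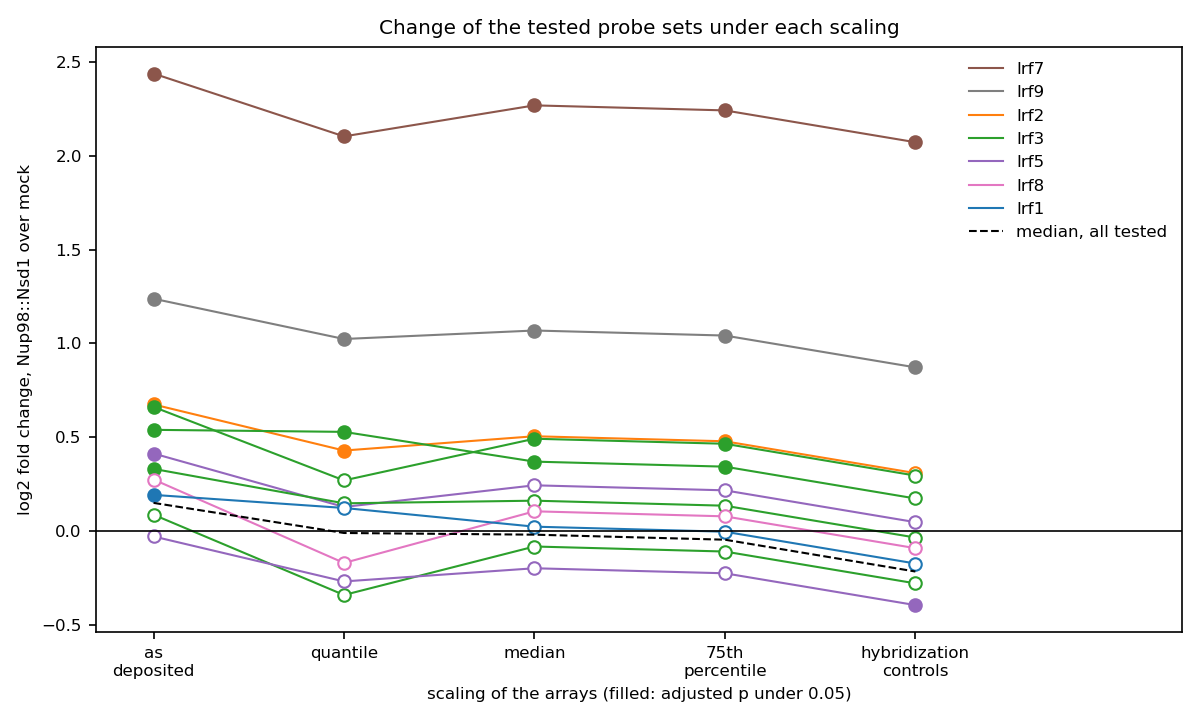
Log2 fold change (Nup98::Nsd1 over mock) of the 11 tested probe sets on the deposited scale and under 4 other scalings of the arrays, 1 line per probe set coloured by gene, with filled points where the adjusted p was under 0.05 and the median of all tested probe sets as a dashed line. All lines, Irf7 and Irf9 included, lie lower under the other scalings than as deposited, as the dashed line does, and the Irf7 and Irf9 lines stay above the others throughout.

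A ratio of 2 signals on the same array does not depend on that array's scale factor, so the changes of Irf7 and Irf9 were also compared with those of the other members in this way, a comparison chosen after the values were seen. The log2 change of Irf7 was larger than that of each of the 10 other tested probe sets, by 1.20 (Irf9) to 2.46, and in all 10 pairs the ratios of the groups did not overlap. The log2 change of Irf9 was larger than that of each of the 9 remaining probe sets, by 0.56 to 1.27, again without overlap in any pair. The exact two-sided permutation p was 0.1 for each of the 19 pairs before adjustment, which is the smallest that 20 assignments of 3 against 3 arrays can give. Irf7 and Irf9 were picked as the members with the largest changes, so the direction of each difference was fixed in advance. The p is therefore no independent support for that direction.

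The genes around the family were read from 6 lists, each gene by its brightest tested probe set. Among the 9641 genes tested in this way, 42.9% were called higher, 29.5% lower, and the median log2 fold change was 0.12.

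The list of RNA and DNA sensing upstream of Irf3, Irf5 and Irf7 held 20 genes, which were sensors, their adaptors and kinases, and also the lipopolysaccharide receptor Tlr4. Of these, 13 were tested, of which 9 were higher, 2 lower and 2 did not pass, with a median log2 fold change of 0.58 (11 tested and 8 higher among genes Present on all 6 arrays, with the same median). Traf6 was counted as higher by its brightest probe set (log2 fold change 0.46), whereas the other of its 2 tested probe sets was called lower. With each gene's probe sets averaged, 8 genes of the list were called higher and 3 lower. Ikbke, a kinase that phosphorylates Irf3 and Irf7, was 8.06-fold higher (2907 ± 167 in Nup98::Nsd1 cells and 363 ± 53.6 in mock cells, SD, n = 3 each, limma adjusted p = 5.76e-10). Its relative Tbk1, which does the same work in most cells, gave a log2 fold change of -0.11 (limma adjusted p = 0.0701) and passed as lower with the arrays centred on the 75th percentile (-0.31) or the median (-0.28) or scaled to the hybridization controls (-0.48). Of its 2 tested probe sets the other was called lower. The RNA sensor gene Ddx58, also known as RIG-I, was 3.80-fold higher, Tlr4 3.12-fold higher, and the DNA pathway adaptor gene Sting1 was 2.38-fold higher. These are RNA levels. Whether Tlr4 or the other proteins can signal in this line of C3H/HeJ origin was not measured.

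The genes of this list called lower, named after their values were seen, were the Toll-like receptor adaptor Myd88 (log2 fold change -0.21, limma adjusted p = 0.0119) and the DNA sensor Cgas (-0.14, adjusted p = 0.0244). Neither passed without Nup98::Nsd1 replicate 2 (-0.15 and -0.13), and Cgas did not pass without mock replicate 2 (-0.13) or mock replicate 3 (-0.14). Unc93b1, which escorts Toll-like receptors to endosomes, gave 0.10 and did not pass (adjusted p = 0.593). The endosomal receptor Tlr9 and the RNA sensor Ifih1 were Absent on all arrays and were not tested. Under the 4 other scalings 5 to 8 genes of this list were called higher and 2 to 3 lower.

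Of 11 genes for interferons, their receptors and JAK-STAT signalling, 8 were tested, of which 5 were higher, 0 lower and 3 did not pass, with a median log2 fold change of 0.50. Ifnar2 encodes a subunit of the type I interferon receptor, and its signal of 2585 ± 106 in Nup98::Nsd1 cells and 1437 ± 124 in mock cells (SD, n = 3 each) made a 1.80-fold difference (limma adjusted p = 3.41e-07). All 3 of its tested probe sets were called higher. The other subunit, Ifnar1, named after its value was seen, was 1.48-fold higher, its kinase Tyk2 1.48-fold, the Irf9 partner Stat2 1.51-fold and the interferon gamma receptor subunit Ifngr2 1.35-fold. With the hybridization controls Ifnar1, Tyk2, Stat2 and Ifngr2 no longer passed (log2 fold changes 0.20, 0.20, 0.23 and 0.06), and 1 gene of the list was still called higher. Under the 4 other scalings 1 to 5 of these genes were called higher and 0 to 3 lower.

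Jak1, Jak2 and Ifngr1 gave log2 fold changes of -0.08, 0.02 and 0.05 and did not pass, although 1 of the 2 tested Jak2 probe sets was called lower. Ifnb1, which encodes interferon beta, was Present on 1 array in each group, with 50.2 ± 18.3 in Nup98::Nsd1 cells and 57.6 ± 13.7 in mock cells (SD, n = 3 each), and was not tested.

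Of 32 interferon-stimulated genes, 17 were Present on all 6 arrays, of which 16 were higher, 0 lower and 1 did not pass, with a median log2 fold change of 0.91. The tested genes numbered 22, with 21 higher and a median of 1.28, but 5 of them (Oas1a, Ifit1, Oas2, Rsad2 and Xaf1) entered only through the Nup98::Nsd1 arrays, where they were high, so the filter itself favours a difference. Among the 8922 genes Present on all 6 arrays, 42.9% were called higher, and their median log2 fold change was 0.10. Oas1a, which makes the second messenger that activates RNase L, had signals of 858, 817 and 883 on the Nup98::Nsd1 arrays, against 59.2, 90.6 and 77.3 on the mock arrays. It was called Present on no mock array, so its fold rests on mock signals that were not called Present. These mock signals lay above the lowest Present signal of their arrays. Limma's estimate of the fold on the deposited scale was 11.4 (95% interval 9.06 to 14.4, adjusted p = 4.47e-09). The log2 fold change of Oas1a was 3.51 as deposited and 3.15 to 3.35 under the 4 other scalings. The ADP-ribosyltransferase gene Parp14 was 3.08-fold higher, Ifi27 2.49-fold and the secreted glycoprotein gene Lgals3bp 2.47-fold. Ifi35 was counted as higher by its brightest probe set (log2 fold change 0.12), although 2 of its 3 tested probe sets were called lower. With each gene's probe sets averaged, 19 genes of the list were called higher and 1 lower.

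The gene that did not pass was Ifit2, which encodes an RNA-binding antiviral protein, with a log2 fold change of -0.18 (limma adjusted p = 0.0822). It passed as lower under each of the 4 other scalings, with log2 fold changes of -0.34 to -0.55. Ifit3 and Oasl1 were Present on no array, Mx1 was Present on 1 mock array, and none of them was tested. Of all 22 tested genes of this list, 16 to 21 were called higher under the 4 scalings, and 1 to 3 were called lower. These counts include the genes that entered only through the Nup98::Nsd1 arrays.

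Of 13 partners and cofactors of the family, 8 were tested, all 8 were higher on the deposited scale, and their median log2 fold change was 0.47. Etv6 was counted by its brightest probe set (log2 fold change 0.17), whereas the other of its 2 tested probe sets was called lower. With each gene's probe sets averaged, 7 genes of the list were called higher. Batf, the partner of Irf4 and Irf8 at composite elements, was 2.05-fold higher (1521 ± 75.4 in Nup98::Nsd1 cells and 744 ± 65.2 in mock cells, SD, n = 3 each, limma adjusted p = 1.81e-07). The histone acetyltransferase gene Ep300 was 1.61-fold higher, and the Irf2-binding corepressor gene Irf2bp2 was 1.51-fold higher, with all 4 of its tested probe sets called. Its relative Irf2bpl was 1.55-fold higher. Under the 4 other scalings 4 to 6 of the 8 were called higher, and 1 was called lower with the hybridization controls. Batf3, Ikzf1 and Ikzf3 were Absent on all arrays, Spib was Present on some arrays of each group, and none of these was tested.

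Of 12 genes known as Irf8 targets in myeloid cells, 7 were tested, of which 2 were higher, 2 lower and 3 did not pass, with a median log2 fold change of 0.10, near that of all genes. The survival gene Bcl2l1 was 1.76-fold higher by the probe set used, the only one of its 3 that was called. Cst3, a protease inhibitor gene abundant in dendritic cells, passed on the deposited scale (log2 fold change 0.10, limma adjusted p = 0.0410) and had the opposite sign with either centring and with the hybridization controls. Leaving out any 1 Nup98::Nsd1 replicate, mock replicate 1 or mock replicate 2 also took its call away (0.088 to 0.11). So did testing without a detection filter, without an intensity trend or with the replicate block. The survival gene Bcl2 was lower by the probe set used (log2 fold change -0.27, limma adjusted p = 0.000190), but of its 5 tested probe sets 3 were called higher and 2 lower. The acid ceramidase gene Asah1 was lower (log2 fold change -0.14, adjusted p = 0.0175), but did not pass after quantile normalization (-0.062) or without Nup98::Nsd1 replicate 1 (-0.13), Nup98::Nsd1 replicate 2 (-0.13) or mock replicate 3 (-0.11). Nf1, Gas2 and Ciita gave log2 fold changes of 0.33, 0.09 and 0.63 and did not pass, and Il12b was Absent on all arrays. Under the 4 other scalings 1 to 2 of these genes were called higher and 1 to 3 lower.

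Of 15 inhibitors of interferon and Irf signalling, 14 were tested, of which 8 were higher, 2 lower and 4 did not pass, with a median log2 fold change of 0.40. The cytokine signalling inhibitor Socs3 was 2.56-fold higher (986 ± 158 in Nup98::Nsd1 cells and 383 ± 16.4 in mock cells, SD, n = 3 each, limma adjusted p = 5.59e-07). The ubiquitin-editing enzyme gene Tnfaip3, also known as A20, was 2.40-fold higher, and the ubiquitin ligase genes Rnf125 and Peli1 were 1.56-fold and 1.46-fold higher. Peli1 did not pass with the hybridization controls (log2 fold change 0.18).

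The inhibitors called lower, named after their values were seen, were Socs1 (log2 fold change -0.51, limma adjusted p = 0.0282) and the phosphatase gene Ptpn6 (-0.18, adjusted p = 0.00412). Socs1 did not pass without Nup98::Nsd1 replicate 2 (-0.43), Nup98::Nsd1 replicate 3 (-0.46), mock replicate 1 (-0.45) or mock replicate 2 (-0.41), and Ptpn6 did not pass after quantile normalization (-0.032). Ptpn11, Pias1 and Nlrx1 gave 0.07, 0.07 and -0.21 and did not pass, although 2 of the 4 tested Pias1 probe sets were called higher. Ptpn2 did not pass by its brightest probe set (-0.0035), whereas 3 of its 4 tested probe sets were called lower. Usp18, a brake on the type I receptor, and Trim21, a ubiquitin ligase, stood in this list and among the interferon-stimulated genes. Under the 4 other scalings 5 to 9 of the inhibitors were called higher and 1 to 5 lower.

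**Figure D4:**
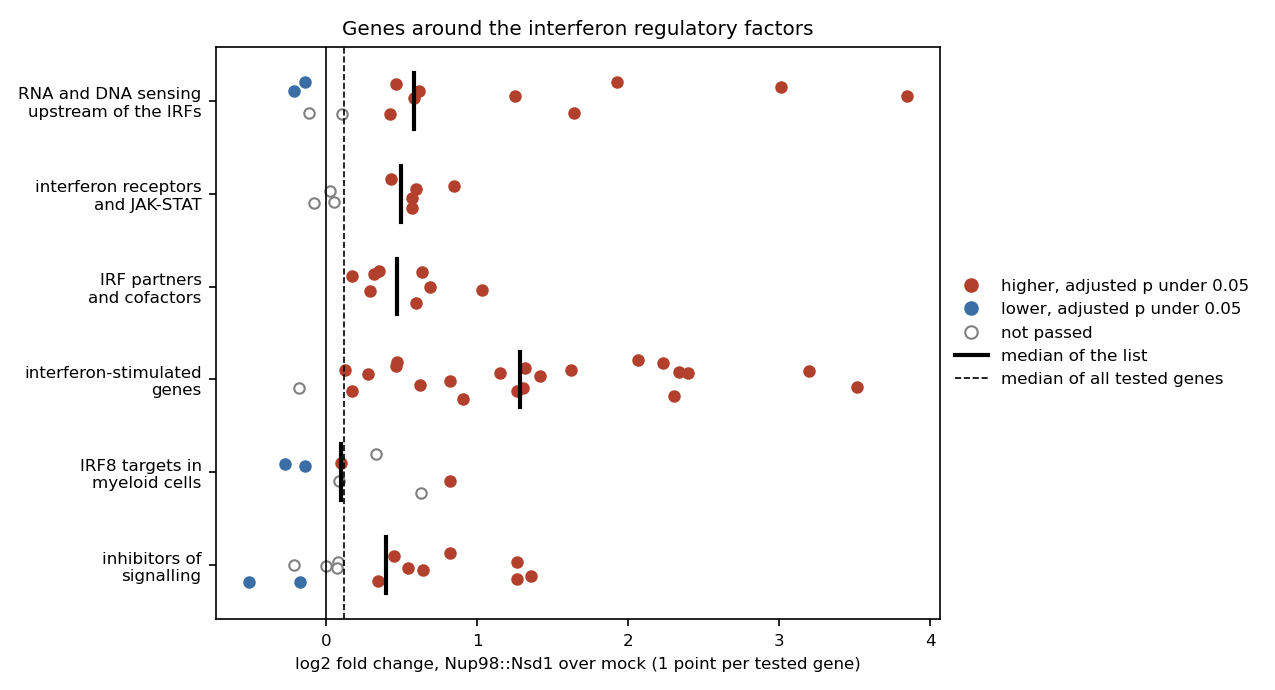
Log2 fold change (Nup98::Nsd1 over mock, deposited scale) of each tested gene in 6 lists around the interferon regulatory factors, 1 point per gene, coloured by call, with a bar at each list's median and a dashed line at the median of all tested genes. The interferon-stimulated genes have a median of 1.28 (0.91 without the 5 that entered only through the Nup98::Nsd1 arrays) and the Irf8 targets a median of 0.10, against 0.12 for all genes.

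Several markers of other cell types differed between the groups, and their part in these results was not tested. Of the 5 markers of plasmacytoid dendritic cells, which make much Irf7 in the body, 4 were Present on none of the 6 arrays, and the summed signal was 447 to 499 on the Nup98::Nsd1 arrays and 488 to 512 on the mock arrays. Of the monocyte and macrophage markers, 3 were measured, with a sum of 3481 to 3641 on the Nup98::Nsd1 arrays and 2827 to 2969 on the mock arrays, where on the deposited scale Csf1r was 2.31-fold and Adgre1 1.17-fold higher and Cd14 was Absent on all arrays. Adgre1 did not pass with either centring and passed as lower with the hybridization controls (log2 fold change -0.15). Of the 6 T and NK cell markers, 4 were Present on none of the 6 arrays, and Nkg7 alone was tested and was lower. Their sum was 956 to 1073 on the Nup98::Nsd1 arrays and 4434 to 4700 on the mock arrays. With 1 tested gene, this sum does not describe the cell type. The 4 measured B cell markers summed to 347 to 479 on the Nup98::Nsd1 arrays and 388 to 457 on the mock arrays. The 4 fibroblast markers summed to 97.2 to 129 on the Nup98::Nsd1 arrays and 78.8 to 148 on the mock arrays. The 2 measured erythroid markers summed to 368 to 395 on the Nup98::Nsd1 arrays and 472 to 534 on the mock arrays.

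The genes whose pattern over the 6 arrays was most like that of Irf7 were sought by the Euclidean distance between log2 signals centred on each gene's mean, over 9640 other genes. The median distance was 2.87. The nearest 5 were Acot2, a fatty acid thioesterase gene, at 0.206, Wdr66 at 0.208, the neutrophil surface gene Cd177 at 0.234, the retinal reductase gene Dhrs3 at 0.241 and Exoc3l2 at 0.246. Acot2 was 5.79-fold higher in Nup98::Nsd1 cells, Dhrs3 4.97-fold, Cd177 4.96-fold and Exoc3l2 4.95-fold. Wdr66 was Present on no mock array, and limma's estimate of its fold from these mock signals was 5.50 (95% interval 4.08 to 7.41). Irf9 lay at a distance of 1.51 and Irf2 at 2.22. With 3 arrays a group, this distance mainly reflects the size of the difference between the groups.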

How the data were processed

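RNA of 3 Nup98::Nsd1 and 3 mock-transduced samples was measured on 6 arrays. The authors used MAS5, per the labels, to make the deposited values, which the file headers describe as scaled signals (intensity, linear) with a detection call. Per the file headers a detection p-value was deposited beside each. Neither the version of MAS5 nor its target value is stated in the labels or headers. The series' deposited matrix gave identical intensities to within rounding (largest relative difference 5.0e-06).

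Intensities below 1 were raised to 1 before log2 was taken, and the authors' scaling was kept. Probe sets that 1 of the groups showed as Present on its 3 arrays entered limma 3.58.1 (lmFit, eBayes with an intensity trend) in R 4.3.3, Nup98::Nsd1 against mock. Benjamini-Hochberg adjustment ran over the 20494 tested probe sets, with a threshold of 0.05. Genes of the lists were represented by their brightest tested probe set. The procedure was tested on simulated data without any difference in scale between the arrays, so that test does not cover the choice of scaling. The precision is limited by the number of arrays. For a gene Present in 1 group alone, a fold was set by the higher of the dim signal and the lowest Present signal of its array. That fold is a point estimate and does not allow for the spread between arrays. For Oas1a and Wdr66 the dim signals were the higher, so the folds given are limma's estimates with their intervals.

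Gene symbols came from the platform annotation, in which 34945 probe sets had 1 symbol, 932 several and 9160 none listed, and were updated through a RefSeq table. The named genes were every member, and in each list up to 4 genes past the threshold with the smallest p and up to 4 others with the highest mean signal, plus the 5 genes most like Irf7. Members and lists were chosen with earlier results of these data known. Alternatives were another detection filter or none, pseudocounts of 16 and 64, quantile normalization, centring on the 75th percentile or the median, scaling to the hybridization controls, the deposited matrix, no intensity trend, array weights, blocking on replicate number, averaging a gene's probe sets, and leaving out each array.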

Additional observations from a re-analysis of the deposited data

How the results depend on the processing

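Over 18 alternatives Irf7 had log2 fold changes of 1.78 to 2.49 and Irf9 of 0.87 to 1.28, and both passed the test in each. The scaling of the arrays shifted all members, Irf7 and Irf9 among them, together with the median of all probe sets, and members with small changes lost their call or sign. With quantile normalization the log2 fold changes were 0.12 for Irf1, 0.15, 0.27 and -0.34 for Irf3 by 1416898_a_at, 1435271_at and 1438721_a_at, 0.13 for Irf5 by 1460231_at and -0.17 for Irf8. Centring on the 75th percentile gave -0.0020 for Irf1, 0.14 and -0.11 for Irf3 by 1416898_a_at and 1438721_a_at, and 0.22 for Irf5 by 1460231_at. Centring on the median gave 0.025 for Irf1, 0.16 and -0.081 for the same Irf3 probe sets and 0.24 for Irf5 by 1460231_at. Scaling to the hybridization controls gave -0.17 for Irf1, 0.31 for Irf2, -0.033, 0.17, 0.30 and -0.28 for Irf3 by 1416898_a_at, 1426111_x_at, 1435271_at and 1438721_a_at, -0.39 and 0.049 for Irf5 by 1449678_at and 1460231_at, and -0.090 for Irf8. Members' probe sets called higher numbered 4, 5, 5 and 2 under these scalings, and 1 was called lower with the hybridization controls, against 8 and 0 as deposited. Over the 6 lists, 51 genes were called higher and 6 lower as deposited (45 and 5 among genes Present on all 6 arrays, a filter that does not rest on 1 group), 30 higher with the hybridization controls, and 12, 10 and 18 lower with the 75th percentile, the median and the hybridization controls. Of all tested probe sets, 42.3% were called higher as deposited and 22.3% with the hybridization controls.

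Without an intensity trend Irf1 (0.19) and Irf3 by 1416898_a_at (0.33) did not pass, and with array weights Irf5 by 1449678_at gave 0.0067. Leaving out 1 array gave 0.14 to 0.26 for Irf1, 0.23 to 0.45 for Irf3 by 1416898_a_at, -0.12 to 0.28 by 1438721_a_at, -0.18 to 0.079 for Irf5 by 1449678_at, 6 to 8 members called higher, and 2 to 6 list genes called lower, the 2 without Nup98::Nsd1 replicate 2.

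Among the named list genes, several near 0 on the deposited scale changed sign. Quantile normalization gave Unc93b1 -0.10, Ifngr1 -0.090, Nf1 -0.092, Gas2 -0.20, Pias1 -0.0026 and Ptpn2 0.097. The 75th percentile gave Unc93b1 -0.094, Ifngr1 -0.15, Jak2 -0.17, Cst3 -0.098, Gas2 -0.11, Pias1 -0.12 and Ptpn11 -0.12. The median gave Unc93b1 -0.067, Ifngr1 -0.12, Jak2 -0.15, Cst3 -0.071, Gas2 -0.083, Pias1 -0.095 and Ptpn11 -0.098. The hybridization controls gave Unc93b1 -0.26, Ifngr1 -0.32, Jak2 -0.34, Cst3 -0.27, Nf1 -0.037, Gas2 -0.28, Pias1 -0.29, Ptpn11 -0.29 and the marker gene Adgre1 -0.15. With array weights Ptpn2 gave 0.014. Leaving out 1 array gave Unc93b1 -0.046 to 0.26, Jak2 -0.045 to 0.071, Gas2 -0.0066 to 0.16, Pias1 -0.017 to 0.13, Ptpn2 -0.050 to 0.058 and Nlrx1 -0.37 to 0.048.

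With the replicate number as a block, 8 members' probe sets were again called higher and 0 lower. Deviations of same-numbered arrays from their group means correlated at -0.017, -0.011 and 0.021 over probe sets, and those of differently numbered arrays at -0.033 to 0.045. Whether equal numbers mark samples made together cannot be told from these values.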
